A study of Mus musculus with 16 samples.

Results

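The 10 genes described here encode constant regions of mouse immunoglobulin: Ighm, Ighd, Ighg1, Ighg2b, Ighg2c, Ighg3 and Igha of the heavy chains, and Igkc, Iglc1 and Iglc2 of the light chains. They are 10 of 50686 gene identifiers in the count tables, of which 29942 had at least 1 count. The set was chosen by gene family and by earlier values of these data, in which Igkc and Ighg2b were higher with senexin B. For that reason all values for senexin B against DMSO are a description. Calls of members in that contrast are counted beside the share over all genes and test nothing about them. Tests are kept for the genotype.

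RNA-seq was performed on 8 lines of BCR-ABL1p185+ bone marrow cells from C57BL/6N mice. In 4 of the lines, labelled wild-type and called Cdk8 fl/fl in the methods, Cdk8 was intact, and in the other 4, labelled Cdk8-ko, it was deleted (Cdk8 Δ/Δ Vav-Cre, with Cre under the haematopoietic Vav promoter). Each line was grown for 48 h with 0.01% DMSO or with 1 µM senexin B, an inhibitor of the mediator kinases CDK8 and CDK19, which gave 4 groups of 4 libraries and 16 libraries in all. All cells, controls included, carried the BCR-ABL1 p185 oncogene on a retrovirus that also encodes GFP, and whether a line is 1 clone is not given in the sources used here. Libraries that share a genotype and a replicate number were read as 1 line. Total counts ran from 13145876 to 18349425 per library. Cdk8 itself ran from 55.1 to 89.2 CPM (read counts scaled to library size with TMM factors) in wild-type libraries. In Cdk8-ko libraries it ran from 35.3 to 61.7 CPM, so the ranges overlapped. These are counts over the whole gene, and the deleted part was not counted apart.

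An antibody is built from 2 kinds of chain, heavy and light, each with a variable and a constant region. The variable region is joined from V, D and J segments by the RAG recombinase while B cells develop, and the constant region is encoded by a separate gene downstream. Pro-B and pre-B cells first make the µ heavy chain from Ighm and pair it with a surrogate light chain made of Igll1 and VpreB, and the kappa locus with Igkc is opened later. Constant genes are also transcribed without a joined variable region, as germline transcripts that start at a promoter upstream of the constant exons. Such transcripts of a γ, ε or α gene accompany class switch recombination, and those of Igkc accompany opening of the kappa locus. The gene models used here cover the constant exons, so germline transcripts, joined transcripts, and secreted and membrane forms fall into 1 count and cannot be told apart.

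The cells carried the transcripts of early B cells. Igll1 ran from 623 to 1884 CPM over the 16 libraries and Vpreb1 from 92.5 to 225 CPM, and the 12 pro-B and pre-B markers summed to between 4864 and 9792 CPM. Ms4a1, which encodes CD20 of more mature B cells, did not exceed 2.09 CPM. Of markers for other cells, Cd3e reached 1 count in a library at most, and Cd3g, Ncr1, Elane, S100a8, S100a9 and Col3a1 had no count in any library.

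Reads of 50 bases must separate genes that are close copies. Ighg2b and Ighg2c, 2 neighbouring γ genes, are the members for which this matters most, because the reads of one could in principle raise the other. Their first coding exons (GRCm38, Ighg2b at chr12:113307643-113307933 and Ighg2c at chr12:113288642-113288932, both on the minus strand) are printed 5′ to 3′ as in the annotated transcripts, with capitals at the bases that differ between the 2 genes.
Ighg2b: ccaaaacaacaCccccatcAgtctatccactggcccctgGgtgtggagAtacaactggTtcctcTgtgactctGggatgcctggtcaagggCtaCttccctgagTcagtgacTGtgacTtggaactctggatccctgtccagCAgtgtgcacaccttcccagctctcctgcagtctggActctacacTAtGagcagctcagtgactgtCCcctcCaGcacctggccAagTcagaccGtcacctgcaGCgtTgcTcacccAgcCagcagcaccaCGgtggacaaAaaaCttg
Ighg2c: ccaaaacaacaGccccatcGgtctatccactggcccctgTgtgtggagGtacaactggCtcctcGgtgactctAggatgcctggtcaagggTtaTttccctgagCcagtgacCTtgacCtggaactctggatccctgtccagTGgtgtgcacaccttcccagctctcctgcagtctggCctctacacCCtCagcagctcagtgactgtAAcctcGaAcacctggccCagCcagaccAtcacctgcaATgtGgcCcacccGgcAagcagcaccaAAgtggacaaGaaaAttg
The 291 bases differ at 36 positions, an identity of 87.6%. Over the annotated transcripts whose exons are in the gene models, 4.15% of the distinct 50-base windows of Ighg2b and 5.49% of those of Ighg2c occur in another gene as well. Ighg1 shared 0.393% of its windows, and none were shared by Ighm, Ighd, Ighg3, Igha, Igkc or Iglc1.

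The λ genes are closer. The first 150 bases that align between the coding exons of Iglc2 (chr16:19198703-19198852, minus strand) and Iglc3 (chr16:19065532-19065681, minus strand), a gene annotated beside the members, are printed in the same way, with capitals at the differences.
Iglc2: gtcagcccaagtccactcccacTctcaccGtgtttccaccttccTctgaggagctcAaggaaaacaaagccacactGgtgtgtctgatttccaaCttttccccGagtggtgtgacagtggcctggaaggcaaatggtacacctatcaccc
Iglc3: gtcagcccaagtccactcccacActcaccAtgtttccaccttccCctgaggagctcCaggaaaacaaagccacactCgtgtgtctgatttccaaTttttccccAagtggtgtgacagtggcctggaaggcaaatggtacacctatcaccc
They differ at 7 of 150 bases, an identity of 95.3%. In Iglc2, 7.65% of the windows occur in another gene, and in Iglc3 22.3% do. Counts of these 2 genes are therefore less certain than those of the others, and Iglc3 also overlaps an exon of the opposite-strand gene 2010309G21Rik over 93 bases.

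Igkc has 1 exon, and its sequence is shown because the gene is 1 of the 2 chosen for a change with senexin B. Its first 300 bases, all within that exon and read on the plus strand at chr6:70726435-70726734, are as follows.
Igkc: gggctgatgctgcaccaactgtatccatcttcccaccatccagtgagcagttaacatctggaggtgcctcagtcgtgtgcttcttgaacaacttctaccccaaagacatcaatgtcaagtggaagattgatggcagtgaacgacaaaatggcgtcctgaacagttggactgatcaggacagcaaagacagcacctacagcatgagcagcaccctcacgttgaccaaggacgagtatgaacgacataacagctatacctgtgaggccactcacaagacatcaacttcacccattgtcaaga
The gene model ends at base 70726966 and is 532 bases long. None of its 50-base windows was found in another gene.

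The members ranged from 3061 CPM per kb to 0. Levels are compared between genes as CPM per kb of exon length. Ighm, the µ gene, was highest in all 16 libraries, from 746 to 3061 CPM per kb with a median of 1589. Igkc, the κ gene, followed with a median of 31.8 CPM per kb and a range from 2.34 to 1385. Ighd, the δ gene that is spliced from the same primary transcript as Ighm, had a median of 9.13 CPM per kb and a range from 3.99 to 25.9. Ighg2b, encoding γ2b, had a median of 2.47 CPM per kb and a range from 0.129 to 47.7. Neighbours in this order overlapped in their ranges. Igkc was above Ighd in 13 of 16 libraries, and Ighd above Ighg2b in 10 of 16. Ighm was above Igkc in every library although the highest Igkc value passed the lowest Ighm values of other lines.

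The other members were at or near the limit of detection. Iglc2, the λ2 gene, had a median of 0.686 CPM per kb and at most 27 counts in a library. Ighg2c, encoding γ2c, reached 16 counts, and Iglc1, the λ1 gene, reached 10. Ighg1, Ighg3 and Igha, the γ1, γ3 and α genes, had no more than 3, 5 and 3 counts in any library and summed to 12, 9 and 8 counts over all 16. A count of 0 allows up to 3 counts, or 0.163 to 0.228 CPM of the library total. That bound covers counting error only, and below it a count of 0 does not tell a low level from none. Among genes annotated beside the members, Iglc3 ran from 2 to 53 counts, Ighe had 2 counts in 1 library, and Iglc4 had none. Ighg2a was not found by symbol.

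**Figure D1:**
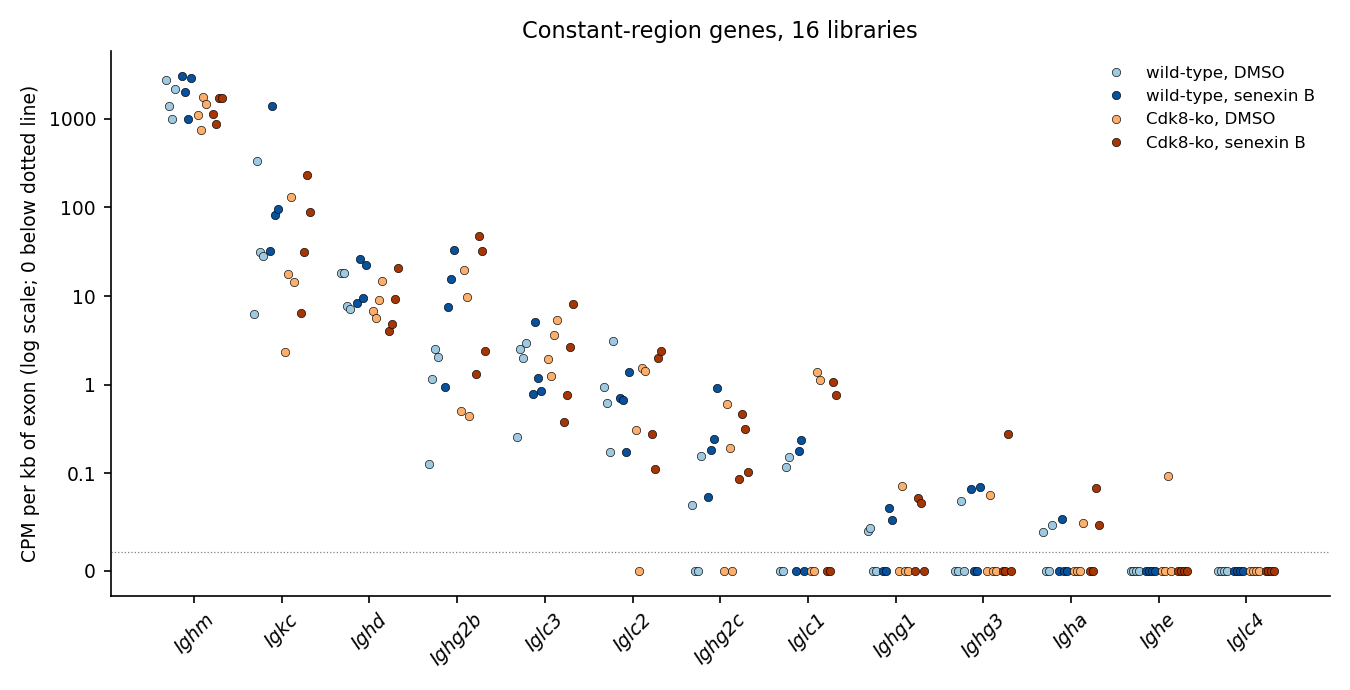
CPM per kb of exon (log scale, values of 0 below the dotted line) for the 10 constant-region genes and for Iglc3, Ighe and Iglc4, ordered by median. Each point is 1 library and colours give the 4 groups, with Ighm above Igkc, Ighd and Ighg2b and with Ighg1, Ighg3 and Igha at 0 in most libraries.

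In GRCm38, Ighm (ENSMUSG00000076617.9) lies at chr12:113418558-113422730, Ighd (ENSMUSG00000104213.5) at chr12:113406604-113416324 and Ighg2b (ENSMUSG00000076613.3) at chr12:113302965-113307933, and Igkc is ENSMUSG00000076609.2. The heavy-chain constant genes lie in 1 cluster on the minus strand of chromosome 12, in the order Ighm, Ighd, Ighg3, Ighg1, Ighg2b, Ighg2c, Ighe, Igha. Level did not fall steadily with distance. Ighg3 begins 61498 bases downstream of the 5′ end of Ighm and Ighg1 92207 bases downstream, and both were at or under 5 counts per library. Ighg2b, at 114797 bases, lies beyond both, and had 6 to 1862 counts. Ighg2c follows at 133798 bases with 0 to 16 counts, and Igha ends the cluster at 162494 bases. Ighg2b was thus the one γ gene of the 4 with 10 counts or more in most libraries, in 15 of 16. Ighg2c had 12 libraries with a count, against 7 for Ighg1 and 5 for Ighg3.

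**Figure D2:**
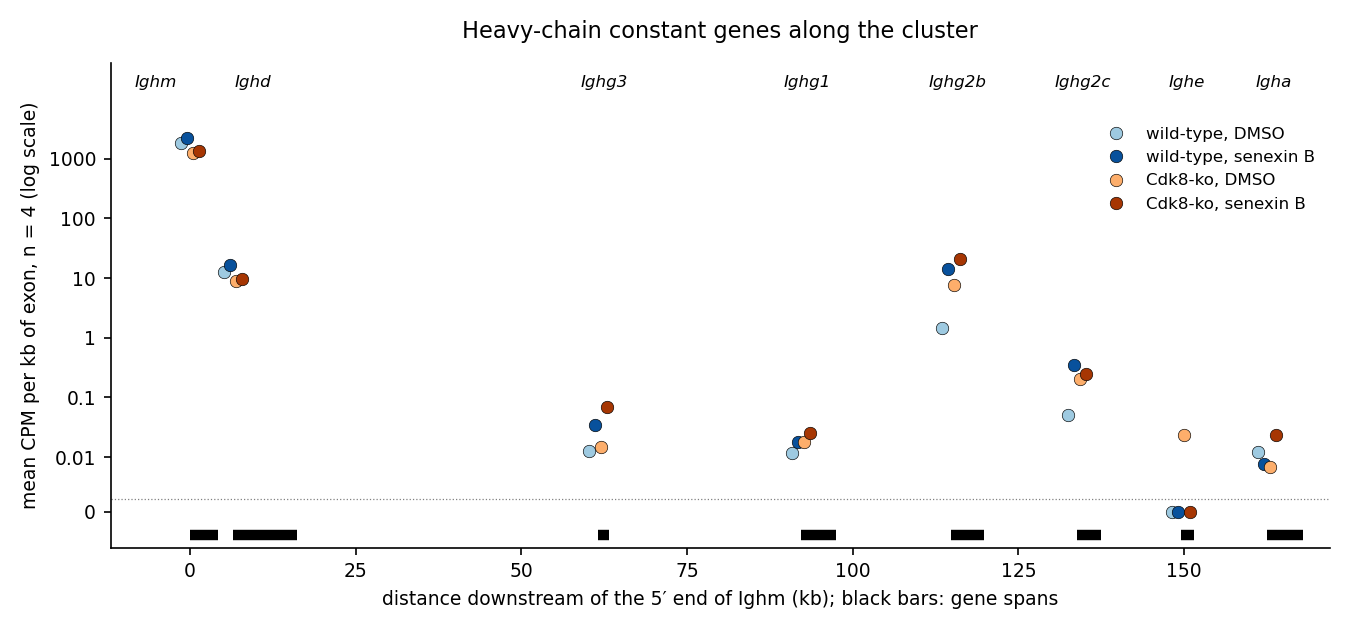
Mean CPM per kb of exon of the heavy-chain constant genes (log scale, means of 0 below the dotted line, n = 4 libraries per group) against distance in kb downstream of the 5′ end of Ighm, with black bars for the spans of the genes. Ighm and Ighd stand at the start, Ighg2b stands above the γ genes on both sides of it, and Ighe and Igha are at or near 0.

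As a share of counts, Ighm made up 82.3% to 99.4% of the 10 genes, with a median of 96.9%. The 10 genes together took 0.158% to 0.567% of all counts. Light-chain constant genes held a median of 0.931% of the counts on all constant genes, and Igkc a median of 95% of those light-chain counts. The share of Igkc was lowest, at 54.1%, in the DMSO library of Cdk8-ko line 1. That share rests on 20 of 37 counts, with a 95% counting interval from 36.9% to 70.5%.

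Ighm and Ighd were the counted members on which the lines differed least. In wild-type lines 1 to 4 with DMSO Ighm was at 5109, 2610, 1868 and 4090 CPM. In Cdk8-ko lines 1 to 4 with DMSO it was at 2075, 1407, 3305 and 2767 CPM. The highest wild-type line was 2.74 times the lowest, the highest Cdk8-ko line 2.35 times the lowest, and the groups overlapped. The means were 3419 ± 1457 CPM (SD, n = 4) for wild-type and 2389 ± 826 CPM (SD, n = 4) for Cdk8-ko.

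With senexin B, Ighm was at 5773, 3748, 1864 and 5363 CPM in wild-type lines 1 to 4. The Cdk8-ko lines 1 to 4 had 2117, 1656, 3230 and 3228 CPM. Lines kept close to their own DMSO level, and the genotypes again overlapped.

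Ighd varied over a similar range among lines. With DMSO it was at 34.5, 34.4, 14.6 and 13.6 CPM in wild-type lines 1 to 4 and at 12.8, 10.7, 17.1 and 28 CPM in Cdk8-ko lines 1 to 4. With senexin B it was at 15.9, 49.3, 18.1 and 42.5 CPM in wild-type lines and at 7.58, 9.2, 17.6 and 39.2 CPM in Cdk8-ko lines. Per kb, Ighm exceeded Ighd by a median of 139-fold in wild-type and 148-fold in Cdk8-ko lines with DMSO.

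Ighg2b differed far more from line to line. In wild-type lines 1 to 4 with DMSO it was at 0.346, 3.08, 6.75 and 5.52 CPM, from 6 to 126 counts. In Cdk8-ko lines 1 to 4 with DMSO it was at 1.37, 53.3, 25.8 and 1.18 CPM, from 16 to 852 counts. Lines 2 and 3 of the Cdk8-ko genotype were above all wild-type lines, while lines 1 and 4 lay among them. The highest line exceeded the lowest 45.3-fold in Cdk8-ko and 19.5-fold in wild-type lines.

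Igkc differed between lines as widely, and a different line was highest. In wild-type lines 1 to 4 with DMSO it was at 3.35, 177, 16.5 and 15 CPM. In Cdk8-ko lines 1 to 4 with DMSO it was at 1.25, 9.51, 69.8 and 7.58 CPM. Wild-type line 2 and Cdk8-ko line 3 stood apart within their groups, 52.7 and 56 times the lowest line of their genotype. The wild-type mean of 52.9 ± 82.7 CPM (SD, n = 4) and the Cdk8-ko mean of 22 ± 32.1 CPM (SD, n = 4) include these 2 lines. In bulk RNA, fewer cells with a transcript and less transcript per cell cannot be told apart.

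Iglc2 was the highest of the λ members, at 10, 6, 2 and 27 counts in wild-type lines 1 to 4 with DMSO and at 3, 0, 15 and 12 counts in the Cdk8-ko lines. In units of CPM its level with DMSO was 0.737 ± 0.791 (SD, n = 4) in wild-type and 0.505 ± 0.482 (SD, n = 4) in Cdk8-ko lines. The spread was as large as the mean, and no λ member separated the genotypes.

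The first comparison asked whether deletion of Cdk8 changed the constant-region genes. No member was called (adjusted p below 0.05, more than 2-fold) with DMSO, where 0.00759% of 13174 genes were called, which is 1 gene. It was Sva, no constant-region gene, and is named after its values were seen. Ighm, Ighd, Ighg2b and Igkc passed the filter on low counts, and the other 6 members did not. Ighm was lower in Cdk8-ko lines by edgeR, with a log2 fold change of -0.51 ± 0.36 (SE) and an adjusted p of 0.912. Ighd gave -0.50 ± 0.42 (SE), and edgeR's adjusted p was 0.912. Neither difference passed the test, and the lines of the 2 genotypes overlapped.

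Ighg2b had a log2 fold change of 2.38 ± 1.29 (SE) for Cdk8-ko over wild-type with DMSO in edgeR, and Igkc one of -1.26 ± 1.39 (SE). Their adjusted p in edgeR was 0.907 and 0.932. Both differences were within the spread between lines. Without wild-type line 2 the value of Igkc turned to 0.91, and without Cdk8-ko line 2 that of Ighg2b became 1.26. The median over all 13174 genes was 0.00 and 50.3% of genes were above 0.

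With senexin B in both genotypes, no member was called either, where 0% of 13010 genes were called by edgeR. At an unadjusted p under 0.05, edgeR gave 202 genes of all, and DESeq2 called 10 genes at the adjusted threshold. None of the 4 tested members reached an unadjusted p of 0.05 in either genotype comparison by edgeR, and none of the 10 did by DESeq2. In Cdk8-ko over wild-type, Ighm was at -0.71 ± 0.38 (SE), Ighd at -0.77 ± 0.59 (SE), Ighg2b at 0.56 ± 1.22 (SE) and Igkc at -2.16 ± 1.37 (SE) on the log2 scale. For all 4 the adjusted p in edgeR was 1.00. Leaving out wild-type line 2 turned Igkc to 0.36, and leaving out Cdk8-ko line 2 turned Ighg2b to -0.23.

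**Figure D3:**
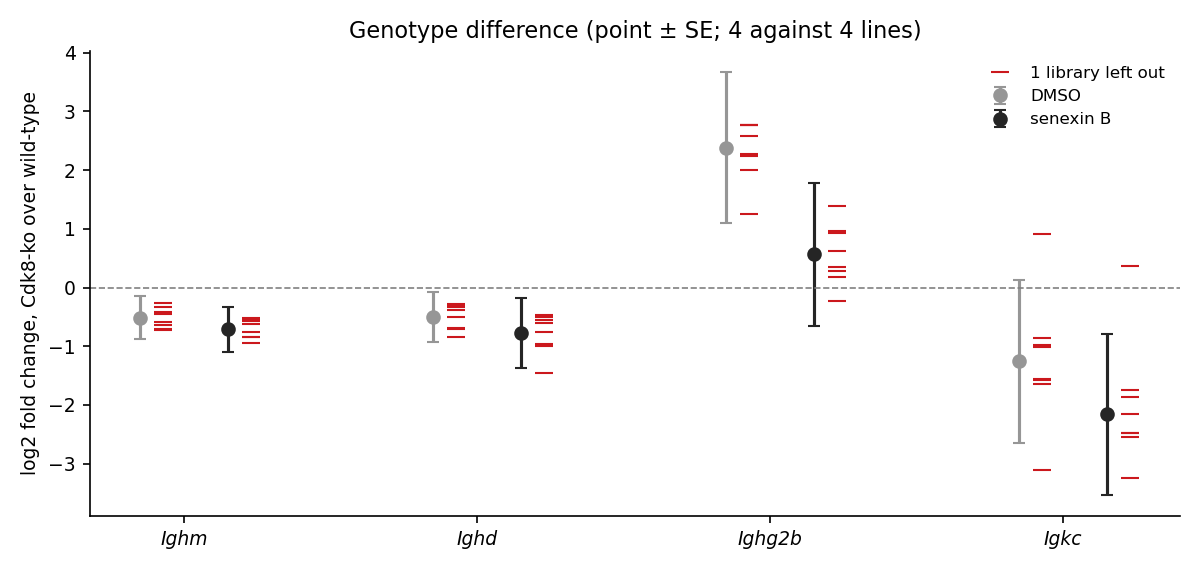
Log2 fold change of Cdk8-ko over wild-type lines (4 against 4) for the members that passed the filter, with DMSO in grey and with senexin B in black, as points ± SE from edgeR. Red dashes give the fold change with 1 library left out, and for Igkc 1 dash in each comparison lies above 0.

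Single genes were also compared by a two-sided exact permutation test of log2(CPM + 1) between genotypes, for the 5 members with at least 10 counts in 4 or more libraries. The smallest p that 4 against 4 lines allow is 0.0286, and 10 comparisons were adjusted together. The smallest exact permutation p was that of Ighm with senexin B, 0.171, with a mean difference of -0.64 on the log2 scale and 3 of 16 pairs of lines higher in Cdk8-ko. With DMSO the exact permutation p was 0.286 for Ighm, 0.314 for Ighd, 0.4 for Ighg2b, 0.543 for Igkc and 0.686 for Iglc2. No adjusted p of this exact test was below 0.667. The groups overlapped in all 10 comparisons.

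Genes that act with the constant-region genes were not called by genotype either, where 0.00759% of all 13174 tested genes were called. At that share, 0 called in a list of this size tells nothing about the list. Of 27 transcription factors of the immunoglobulin loci, 0 were called with DMSO by edgeR, 14 lay above 0 and 13 below, and the median log2 fold change was 0.03. The 2 with the largest size were Id2, an inhibitor of E proteins, at -1.42 ± 0.68 (SE) and Spib, an Ets factor, at -1.15 ± 0.56 (SE). Of 9 tested genes of plasma cells and immunoglobulin secretion, 0 were called and 9 lay above 0, with a median of 0.54. Jchain, which links IgM and IgA into polymers, had 2.62 ± 1.07 (SE) with an edgeR adjusted p of 0.898, and Slamf7 had 1.02 ± 1.01 (SE). Jchain was at 109 and 52.1 CPM in Cdk8-ko lines 3 and 4 and at no more than 12.4 CPM in the other DMSO libraries.

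Of 15 tested genes of class switch recombination 0 were called with DMSO, beside 0.00759% of all genes, and the median was 0.10. The 2 with the largest fold change were Trp53bp1, a repair factor, at 0.39 ± 0.14 (SE) and Apex2, a nuclease of base excision repair, at -0.38 ± 0.25 (SE). Of 6 genes of the pre-B receptor 0 were called, with Cd79b, a signalling chain, at -0.31 ± 0.18 (SE) and Igll1 at 0.25 ± 0.29 (SE). In the V(D)J recombination list, 0 of 10 were called, and Rag2 was at 3.60 ± 0.93 (SE) and Rag1 at 3.51 ± 0.70 (SE) with an edgeR adjusted p of 0.898 each.

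With senexin B in both genotypes, 0 of 27 transcription factors, 0 of 16 class switch genes, 0 of 9 secretion genes and 0 of 6 pre-B receptor genes were called by edgeR between genotypes. Over all 13010 genes 0% were called, so these counts tell nothing about the lists. The medians were 0.04, -0.02, 0.16 and -0.41 on the log2 scale, beside 0.00 for all genes.

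The second comparison set senexin B against DMSO within each line. Igkc was higher with senexin B in 8 of 8 lines, as the choice of this gene implies. In wild-type lines 1 to 4 with senexin B it was at 17, 737, 43.3 and 51 CPM, and in Cdk8-ko lines 1 to 4 at 3.39, 16.8, 123 and 47.4 CPM. The line that was highest with DMSO remained highest in each genotype. The ratio to DMSO in the same line ran from 1.76 to 6.26, with a median of 3.05. Wild-type lines had ratios of 5.09, 4.17, 2.62 and 3.39 in lines 1 to 4, and Cdk8-ko lines of 2.72, 1.77, 1.76 and 6.26. Wild-type line 2 gained most in absolute terms, from 2808 to 9012 counts, and its Igkc per kb came closest to that of Ighm, which was 1.43 times higher.

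The ratios differed between lines by more than their counting error. The 95% counting interval of the ratio was 4 to 4.36 in wild-type line 2 and 1.63 to 1.89 in Cdk8-ko line 3, which are apart. Line 1 of the Cdk8-ko genotype had 20 and 59 counts and an interval from 1.61 to 4.77. Reads without molecular identifiers are not independent molecules, so these intervals cover counting error only.

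Ighg2b was also higher with senexin B in 8 of 8 lines. In wild-type lines 1 to 4 with senexin B it was at 2.52, 20.2, 41.4 and 87.9 CPM, and in Cdk8-ko lines 1 to 4 at 3.56, 128, 86.8 and 6.47 CPM. Wild-type line 4 had the highest ratio to DMSO, 15.9 with a 95% counting interval from 12.7 to 20.3, and went from 79 to 1144 counts. The other wild-type lines had 7.27, 6.55 and 6.14. Cdk8-ko lines 1 to 4 had ratios of 2.6, 2.4, 3.36 and 5.5. The 95% counting interval of Cdk8-ko line 4, 3.21 to 10, overlapped that of wild-type line 3, 5.08 to 7.47. The lowest wild-type ratio, 6.14, was above the highest Cdk8-ko ratio, 5.5. How many of all genes separate in this way was not counted. As a difference of log2(CPM + 1), wild-type line 1 was at 1.39, below Cdk8-ko lines 3 and 4 at 1.71 and 1.78. Wild-type line 1 had 0.346 CPM with DMSO, from 6 counts, which is below the added 1. Without the added 1 its log2 ratio was 2.86. In the 2 Cdk8-ko lines with most Ighg2b under DMSO, the transcript went from 852 to 1862 and from 407 to 1432 counts. With senexin B it made up as much as 7.12% of heavy-chain constant counts in a Cdk8-ko library, and a median of 1.06% in wild-type and 1.4% in Cdk8-ko libraries.

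**Figure D4:**
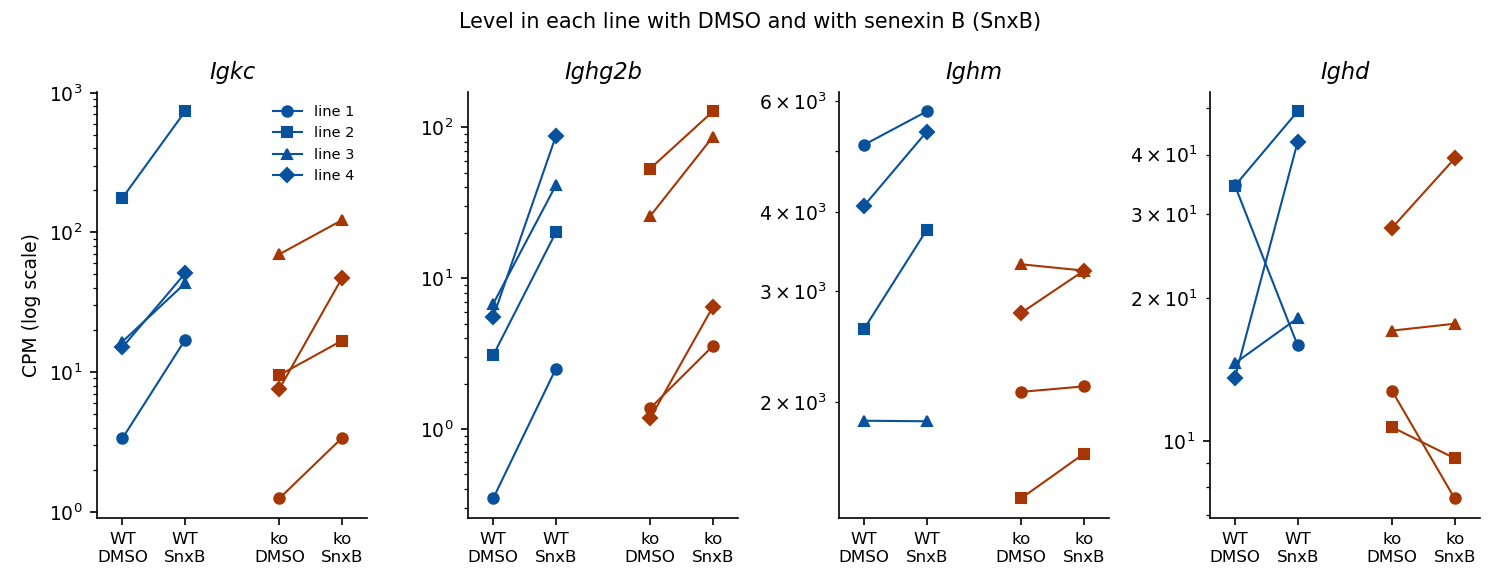
CPM (log scale, a different range in each panel) of Igkc, Ighg2b, Ighm and Ighd in each of the 8 lines with DMSO and with senexin B (SnxB), 4 wild-type (WT, blue) and 4 Cdk8-ko (ko, orange). Lines join the 2 libraries of 1 line, and they slope upward for Igkc and Ighg2b in 8 of 8 lines while those of Ighd cross.

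Ighm moved little. It was higher with senexin B in 6 of 8 lines, with ratios from 0.977 to 1.44 and a median of 1.15. Ighd went both ways, higher in 5 lines and lower in 3, with ratios from 0.461 in wild-type line 1 to 3.13 in wild-type line 4. The counting intervals of these 2 extremes, 0.393 to 0.539 and 2.66 to 3.71, lie on opposite sides of 1. Ighd and Ighm, which share a primary transcript, therefore went apart in wild-type line 1, where Ighm had a ratio of 1.13.

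Among the scarce members, Ighg2c had more counts with senexin B in 6 of 8 lines, fewer in 1 and 1 count in both libraries of wild-type line 1, with 0 to 13 counts under DMSO and 1 to 16 counts under senexin B. In wild-type line 4, where Ighg2b went from 79 to 1144 counts, Ighg2c went from 3 to 16. As given above, 5.49% of the windows of Ighg2c also occur in Ighg2b. Iglc2 had more counts in 3 lines, fewer in 3 and equal counts in 2, and Iglc3 more in 3 and fewer in 5. Ighg1 had more counts in 3 lines and fewer in 3, Ighg3 more in 3 and fewer in 2, Igha more in 2, fewer in 2 and 1 count in both libraries of 1 line, and Iglc1 more in 2 and fewer in 3, with the remaining lines at 0 under both conditions. Ighg1, Ighg3 and Igha had at most 5 counts in a library, so no direction can be told for them at this depth.

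**Figure D5:**
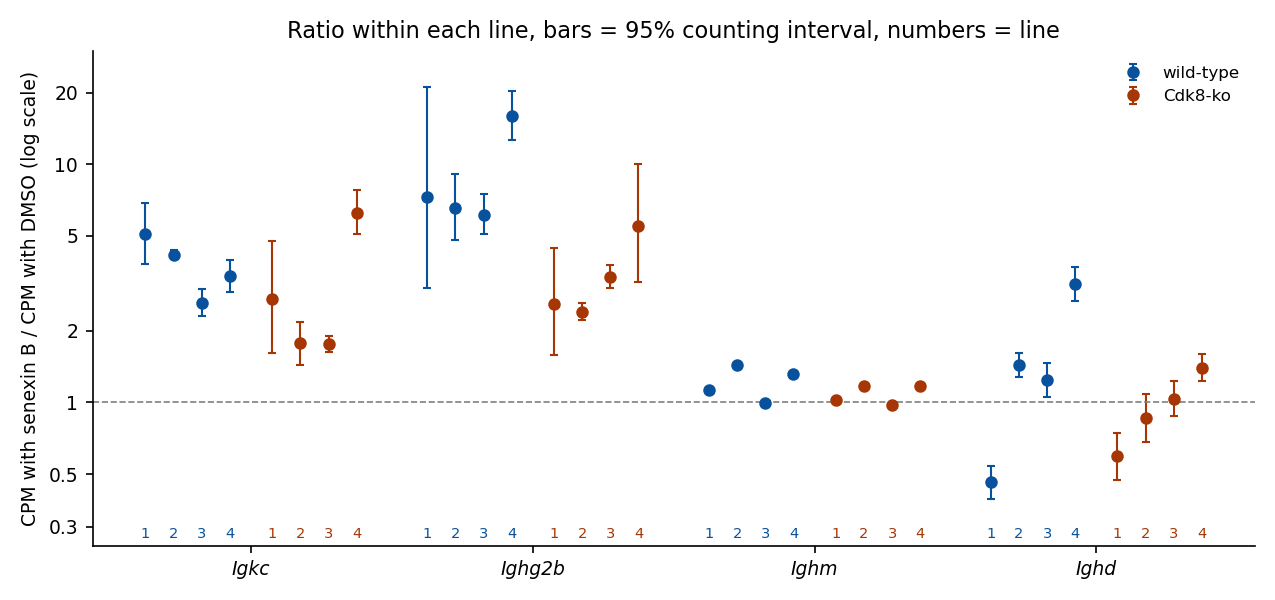
Ratio of CPM with senexin B to CPM with DMSO in the same line (log scale) for Igkc, Ighg2b, Ighm and Ighd, with bars for the 95% counting interval and the line number under each point. All 8 ratios of Igkc and of Ighg2b lie above 1 (dashed line), those of Ighm lie from 0.977 to 1.44, and those of Ighd lie on both sides.

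Fitted over all 8 lines with line as a term, the log2 fold change was 1.65 ± 0.20 (SE) for Igkc and 2.33 ± 0.28 (SE) for Ighg2b. Ighm was at 0.19 ± 0.09 (SE), Ighd at 0.12 ± 0.25 (SE) and Iglc2 at -0.03 ± 0.31 (SE). Over all 14164 genes 0.946% were called, 81 higher and 53 lower. Igkc and Ighg2b were among them, as 2 of the 5 members that passed the filter, but the set was chosen for their values in this contrast, so nothing is read from that count. With each line left out in turn the value ranged from 1.51 to 1.80 for Igkc and from 2.05 to 2.55 for Ighg2b.

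Within a genotype, the fits without a term for the line called 0 of the 4 tested members in wild-type and 0 of 5 in Cdk8-ko lines, where edgeR called 0% of 12989 and 0% of 13285 genes. At an unadjusted p under 0.05 these fits gave 493 and 243 genes of all, and DESeq2 called 19 and 0. The log2 fold change of Ighg2b was 3.28 ± 1.08 (SE) in wild-type and 1.46 ± 1.45 (SE) in Cdk8-ko lines, and that of Igkc 2.01 ± 1.46 (SE) and 1.11 ± 1.29 (SE). In these unblocked fits the wild-type value of Igkc was 4.18 without the DMSO library of line 2 and -0.50 without its senexin B library. Ighm had 0.30 ± 0.42 (SE) and 0.10 ± 0.32 (SE), and Ighd 0.38 ± 0.47 (SE) and 0.10 ± 0.56 (SE). With the replicate number as a block, the errors of Ighg2b and Igkc fell: Ighg2b was at 3.09 ± 0.28 (SE) in wild-type and 1.63 ± 0.18 (SE) in Cdk8-ko lines, and Igkc at 1.88 ± 0.19 (SE) and 1.39 ± 0.31 (SE). The blocked fits called 0.346% of genes in wild-type lines, Igkc and Ighg2b among them, and 0.0527% in Cdk8-ko lines, with no member. These are the libraries on which both genes were chosen, so the calls are no test of them.

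The difference of the 2 genotypes in their change with senexin B, Cdk8-ko minus wild-type, was -1.82 ± 1.88 (SE) for Ighg2b and -0.89 ± 2.05 (SE) for Igkc on the log2 scale, and -1.44 ± 0.36 (SE) and -0.47 ± 0.39 (SE) with the lines as terms. No member and 0% of 14164 genes were called for this difference by edgeR without lines as terms, with 67 genes at an unadjusted p under 0.05 and 0 called by DESeq2. These contrasts share their DMSO or senexin B libraries with the comparisons above, so they are not independent of them.

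Other genes of the loci were set beside this contrast. In the class switch list the median over 16 tested genes was 0.04 beside 0.00 for all genes, and Apex1, an endonuclease of base excision repair, was at 0.45 ± 0.14 (SE).

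Of 27 transcription factors 0 were called, beside 0.946% of all 14164 genes. A count of 0 in a list of this size, here and in the lists that follow, is near that share. Of the transcription factors 15 lay above 0 and 12 below, and the median was 0.02. Id3, an inhibitor of E proteins, was at 0.84 ± 0.35 (SE) and Pou2f2, the octamer factor OCT2, at -0.71 ± 0.17 (SE). Of 9 secretion genes 0 were called, with Derl3 at 0.71 ± 0.39 (SE) and Prdm1, a driver of plasma cell fate, at 0.55 ± 0.40 (SE). Of 6 pre-B receptor genes 0 were called, with Cd79b at -0.38 ± 0.08 (SE) and Igll1 at 0.32 ± 0.21 (SE). In the V(D)J list 0 of 10 were called, and Rag1 was at 0.68 ± 0.47 (SE) and Rag2 at 0.65 ± 0.43 (SE).

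Variable and joining segments were compared with the constant genes in the same libraries. The summed Igkv genes went from 20.1 to 23.2 CPM in wild-type line 2, where Igkc went from 177 to 737 CPM, and from 110 to 85.1 CPM in Cdk8-ko line 3, where Igkc went from 69.8 to 123 CPM. In wild-type lines 1, 3 and 4 the Igkv sum went from 56.9 to 74.2, 28 to 28.8 and 23.6 to 17.4 CPM. In Cdk8-ko lines 1, 2 and 4 it went from 20.25 to 19.4, 42 to 41.5 and 73.25 to 50.1 CPM. Summed Igkj segments had more counts with senexin B in 7 of 8 lines and 0 in both libraries of Cdk8-ko line 1. They went from 30 to 47 counts in wild-type line 2 and from 12 to 31 in Cdk8-ko line 3, and from 5 to 7 in Cdk8-ko line 2. Among heavy-chain joining segments, Ighj4 led in both libraries of wild-type lines 1 and 2 and of Cdk8-ko lines 1 and 2. It had 581 and 417 counts in wild-type line 1 but only 5 and 8 in Cdk8-ko line 2, with DMSO and senexin B. Ighj2 led in both libraries of Cdk8-ko lines 3 and 4.

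Markers of other cells were low but not all at 0. The 7 T cell markers summed to between 0.314 and 14.1 CPM in wild-type DMSO, 1.64 and 25.5 in wild-type senexin B, 1.08 and 12.5 in Cdk8-ko DMSO and 2.09 and 24.7 in Cdk8-ko senexin B libraries. Nearly all of this was Cd28, at 0.251 to 25.5 CPM, while Cd3e stayed at 1 count or fewer. Erythroid markers summed to 3.64 to 264 CPM, mainly through Hbb-bt at 2.75 to 263 CPM. The sums were 0.503 to 25 CPM for 8 myeloid markers, 0.288 to 81.4 CPM for 4 NK markers, led by Klrb1c, and 0 to 2.2 CPM for 5 stromal markers. The part of these markers in the values of Igkc and Ighg2b was not tested.

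The genes most like 3 members were sought by Pearson's r of log2(CPM + 1) over the 16 libraries among 12558 genes with a mean of at least 1 CPM. The libraries include 2 of each line, so r is a description. For Igkc the closest was Gm30211 (r = 0.88), followed by Taf4 (r = 0.87), Samd1 (r = 0.86), Phka2 (r = 0.85) and Rprm (r = 0.85). Gm30211 is annotated on the same strand at chr6:70719074-70740554, a span that contains Igkc, but the 2 gene models share 0 exon bases. It had 2 to 215 counts and a higher CPM with senexin B in each line. It went from 44 to 215 counts in wild-type line 2 and from 38 to 116 in Cdk8-ko line 3. In Cdk8-ko line 2 it went from 40 to 50 counts. In Cdk8-ko line 1 it went from 2 to 3, too few to tell a direction.

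For Ighg2b the closest genes were Man1c1 (r = 0.88), Gm5147 (r = 0.86), E130215H24Rik (r = 0.82), Stat5a (r = 0.80) and Zscan22 (r = 0.80). For Ighm they were Fgd6 (r = 0.83), Cd55 (r = 0.83), Os9 (r = 0.82), Cacnb2 (r = 0.82) and Gm42427 (r = 0.81). Between members, r was 0.46 for Igkc with Ighg2b, 0.58 for Ighm with Ighd and -0.25 for Ighm with Ighg2b. The 2 genes chosen for their change with senexin B were thus highest in different lines, Igkc in wild-type line 2 and Ighg2b in Cdk8-ko line 2.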

How the data were processed

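Count tables of 16 mouse RNA-seq libraries were used. The authors prepared the libraries with a SENSE mRNA-Seq kit (50-base single-end reads), trimmed reads with Trimmomatic, mapped them with STAR to GRCm38 with GENCODE M13 genes and counted reads per union gene model with featureCounts. The deposited values are raw counts, with no normalization and no strand setting stated in the methods. Column totals of 13145876 to 18349425 are the depth. Sequences and positions came from GENCODE M21, which has the same assembly, for exons found in the M13 models.

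Each 2-group comparison was fitted on its 8 libraries with edgeR 4.0.16 in R 4.3.3 (filterByExpr, TMM scaling, robust quasi-likelihood test, Benjamini-Hochberg adjustment over all genes tested, SE as the fold change over the root of F). Genes were called at an adjusted p below 0.05 when they also differed more than 2-fold, as in the study's methods. Levels are CPM with TMM factors over 16 libraries. The exact permutation test used SciPy 1.17.1 and log2(CPM + 1), and 95% intervals of ratios are exact (Clopper-Pearson). DESeq2 1.42.0, other scaling and filters, left-out libraries and a replicate block were alternatives. The edgeR fits were tested on simulated data.

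Same-numbered libraries of a genotype were read as 1 line, which the labels do not state. Their deviations from the group means, over 14164 genes, correlated at 0.559 or more in wild-type and 0.765 or more in Cdk8-ko pairs, and libraries of different number at 0.21 or less, so the numbers pair the samples. Whether lines came from separate mice is not given in the sources used here, so p-values measure the spread between these lines.

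The members and lists were chosen with earlier results of these data known. The rule for named genes took all 10 members, other annotated constant genes, called genes of a list and its 2 largest fold changes, and for Igkc, Ighg2b and Ighm the 5 genes of highest r. Some genes of the class switch and marker lists that it took, called ones included, are not reported here.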

Additional observations from a re-analysis of the deposited data

Results flagged for a closer look

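In 5 members with 4 groups each, 20 groups of 4 libraries were searched for a library far from the other 3 on the CPM scale. Chance meets the rule in about 1 in 20 groups when values are normally distributed. Whether that rate holds for CPM values as unevenly spread as those of Igkc was not tested. All 3 libraries found were for Igkc. Wild-type line 2 with DMSO was at 177 CPM, with the next library at 16.5 CPM and a gap of 0.924 of the range. The same line with senexin B was at 737 CPM, with the next at 51 CPM and a gap of 0.953 of the range. Line 3 of the Cdk8-ko genotype with DMSO was at 69.8 CPM, with the next at 9.51 CPM and a gap of 0.88 of the range. The first 2 are libraries of 1 line and are not independent.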

How the results depend on the processing

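Direction and calls for single members by genotype held under most alternatives. In the comparison in DMSO, Igkc reversed to 0.91 without wild-type control replicate 2, in a leave-one-out range from -3.11 to 0.91. With senexin B, Igkc reversed to 0.36 without wild-type senexin B replicate 2 (range -3.24 to 0.36), and Ighg2b to -0.23 without Cdk8-ko senexin B replicate 2 (range -0.23 to 1.39). The number of members called was 0 in both genotype comparisons under every alternative, leave-one-out included (0 to 0), and 0 single members passed the permutation test with another pseudocount or without TMM.

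With the replicate block, 2 members were called for senexin B in wild-type lines in place of 0, and 0 in Cdk8-ko lines and for the interaction. The 2 were chosen on that contrast, so their calls are a description. Without the replicate block, 0 members were called over all lines in place of 2. Leaving out 1 library or line kept these counts at 0 to 0 within genotypes and 2 to 2 over all lines. The block changed no other call of a member.

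Counts over all genes moved more. With DMSO, 1 gene was called by genotype, 32 by DESeq2, and 0 with a replicate block, with at least 10 counts in every library or with any library left out. With senexin B, 0 were called by genotype, 10 by DESeq2 and 1 with no filter or with all 16 libraries in 1 fit. For senexin B in wild-type lines 0 became 45 with the block, 19 by DESeq2 and 3 with no filter, and in Cdk8-ko lines 0 became 7 with the block. Over all lines 134 became 0 without the block, 183 by DESeq2, and 80 to 178 with 1 line left out, of which 80 without wild-type line 3 and 88 without wild-type line 4. The cause of these changes was not tested. Ighg1, Ighg3, Igha, Iglc1 and Ighg2c did not pass the filter in any comparison at this depth.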
